A study of Rattus norvegicus with 6 samples.

Results

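The 10 genes described here belong to bone morphogenetic protein (BMP) signalling and were measured in rat lung, in 3 animals that had inhaled silica and 3 that had not. They were the ligand genes Bmp2, Bmp3, Bmp4 and Bmp6, the receptor genes Bmpr1a, Bmpr2 and Acvrl1, the target genes Id1 and Id3, and the proprotein convertase gene Pcsk6. These 10 genes, of 14217 named genes on the array, were chosen from results of the silica against control comparison itself, so their differences between the groups are given as a description. No p is given for them, and a call in the fit over all probe sets only says where a gene stands in that fit. Every probe set annotated to one of these genes alone was included, which gave 15 probe sets. A gene's leading probe set is the one with the highest mean over all 6 arrays.

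All animals were Lewis rats, an inbred strain, and lung tissue was taken. Animals of the silica group inhaled silica dust as an aerosol (6.2 mg/m3) on 5 days of each week, 6 hours per day, over 6 weeks, and those of the control group inhaled filtered air. The sources used here do not state the age or sex of the animals, nor how long after the last exposure tissue was collected. Each animal gave 1 short-oligonucleotide array, whose deposited signals are on a linear scale in arbitrary units. The lung label was borne out by the epithelial genes: Sftpc, the surfactant protein C gene, had signals between 19546 and 24855 on the silica arrays and between 22598 and 23511 on the control arrays.

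BMPs are secreted ligands of the transforming growth factor beta superfamily. A proprotein convertase cuts the precursor, the mature dimer brings type I and type II receptor kinases together, and the receptors phosphorylate Smad1, Smad5 and Smad9, which enter the nucleus with Smad4 and switch on genes such as Id1 and Id3. In the lung the pathway is known for its part in branching of the airways and in the vessel wall, where loss-of-function variants of the human genes BMPR2 and ACVRL1 are associated with pulmonary arterial hypertension.

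The silica lungs carried less signal for the convertase, for 2 of the 4 ligands, for 2 of the 3 receptors and for 1 of the 2 Id genes. By the leading probe set, the 3 silica arrays all lay below the 3 control arrays for 6 of the 10 genes (Pcsk6, Bmpr1a, Bmp3, Id3, Bmpr2 and Bmp6) and all above them for 0. Over all genes 12.7% were apart in the lower direction and 18.7% in the higher. The log2 fold change (silica minus control, on log2(signal + 16)) was below 0 for 8 of the 10, against 46.3% of all genes, and at -0.5 or lower for 5, against 3.76% of all genes. Its median over the 10 genes was -0.40, against 0.02 over all genes. At a limma adjusted p under 0.05 over all probe sets, 2 of the 10 were called lower (Bmp3 and Pcsk6) and 0 higher, where 0.12% of all genes were called lower and 1.55% higher. Since the genes were taken from this comparison, nothing is read from these counts. Without any single array of the 6 the count called was 0. Those fits called between 0 and 12 of all probe sets, against 335 with all 6 arrays.

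**Figure D1:**
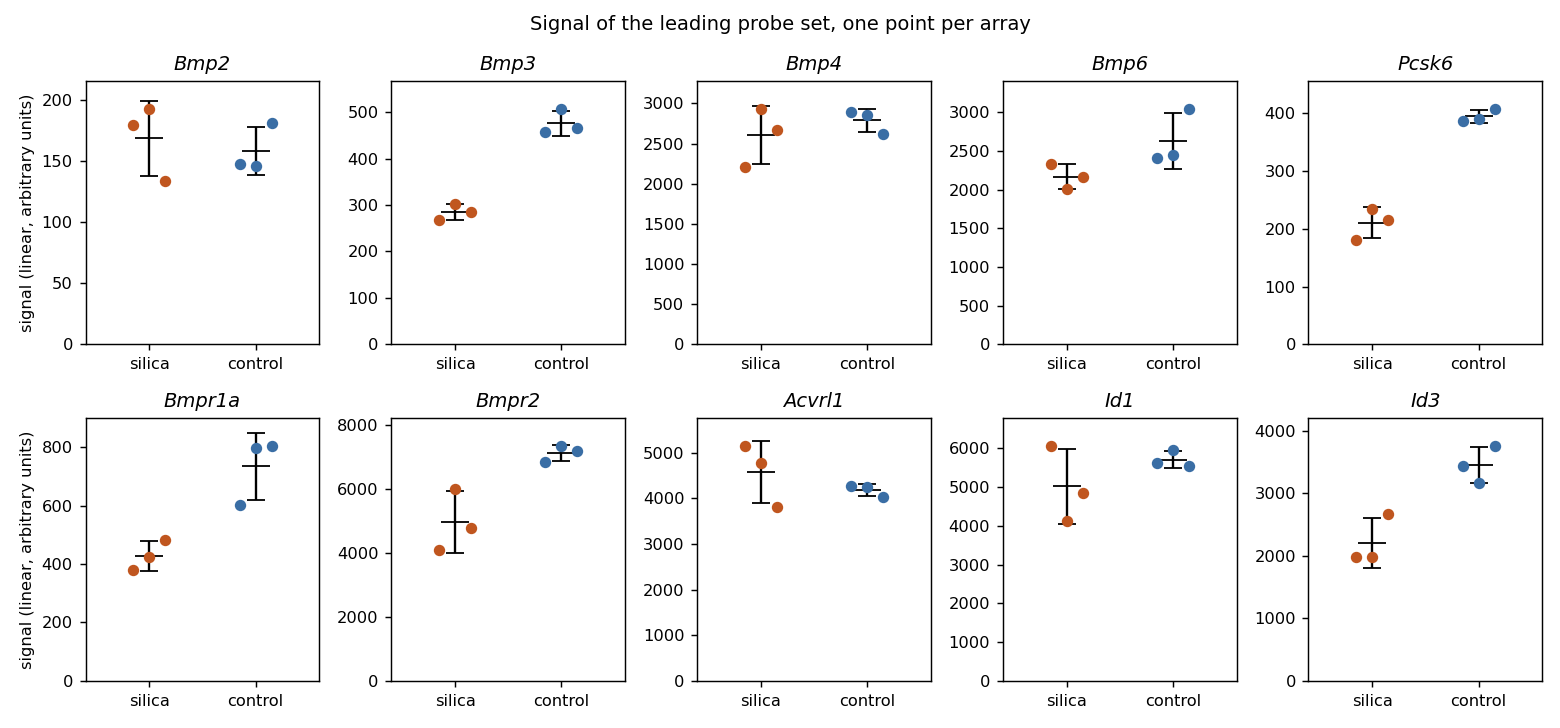
Linear signal of the leading probe set of each of the 10 genes, with 1 point per array, silica left of control, and the mean ± SD of 3 arrays in black; each panel has its own axis, which starts at 0. The groups stand clear of each other for Bmp3, Bmp6, Pcsk6, Bmpr1a, Bmpr2 and Id3, and overlap for Bmp2, Bmp4, Acvrl1 and Id1.

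Bmp3 encodes an atypical member of the family that is known to oppose other BMPs rather than to signal through the BMP Smads. Its single probe set had signals of 269, 303 and 285 on the silica arrays, against 458, 507 and 465 on the control arrays. All 3 silica values sat in a narrow band far below the lowest control value, and the silica mean was 60.0% of the control mean. The means were 286 ± 17.2 in silica lungs and 476 ± 26.5 in control lungs (SD, n = 3 each), a log2 fold change of -0.71 ± 0.10 (SE). The SD within the groups on the log2 scale, 0.08, was the smallest of the 10 leading probe sets, and leaving out 1 array at a time kept the fold change between -0.75 and -0.66.

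Bmp4 and Bmp2, which encode canonical ligands, had overlapping groups. Bmp4, a ligand of branching airways and of lung mesenchyme, had 2212, 2928 and 2674 in silica lungs, against 2888, 2852 and 2624 in control lungs. These values were interleaved, and its log2 fold change was -0.11 ± 0.13, which was 0.01 without silica replicate 1 and -0.19 without silica replicate 2. Bmp2, its closest relative, had 179.8, 193 and 134 in silica lungs, against 148, 146 and 181 in control lungs in the leading probe set, again with overlap (0.07 ± 0.16). Without silica replicate 2 that value was -0.02, and without silica replicate 3 it was 0.22. A dimmer Bmp2 probe set read 27.6, 47.6 and 32.3 in silica lungs, against 71.4, 45.9 and 57.7 in control lungs, a log2 fold change of -0.52 ± 0.19, so the probe sets of Bmp2 pointed in opposite directions.

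Bmp6, a ligand that also controls iron balance in the liver, was represented by 4 probe sets, and each had a log2 fold change below 0. The leading one read 2326, 2010.2 and 2167 in silica lungs, against 2404, 2440.0 and 3038 in control lungs. The gap between the groups was small, since the highest silica array nearly reached the lowest control array, and control replicate 3 stood well above the rest. The log2 fold change was -0.27 ± 0.13, and -0.16 without control replicate 3. The next brightest probe set showed a wider gap, with 1192, 1131 and 1210.0 in silica lungs, against 1431, 1621 and 2016 in control lungs (-0.50 ± 0.15). The other 2 probe sets were dimmer, and averaged 11.3 ± 3.74 and 13.4 ± 11.6 in silica lungs, against 69.3 ± 47.8 and 27.4 ± 6.40 in control lungs. All their silica signals lay under 32, the limit below which a signal is called dim. Their log2 fold changes of -1.49 ± 0.42 and -0.62 ± 0.28 thus depend in size on the pseudocount, and had the widest errors of the Bmp6 probe sets.

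Pcsk6, also called PACE4, encodes a secreted convertase that cleaves precursors of the superfamily at clusters of basic residues. Its signals were 181, 234 and 216 in silica lungs, against 386, 391 and 407 in control lungs. It had the lowest log2 fold change of the 10 genes by leading probe set, at -0.87 ± 0.12, and the silica mean was 53.3% of the control mean. The means were 210.4 ± 27.2 in silica lungs and 395 ± 11.1 in control lungs (SD, n = 3 each). Under the 17 alternative settings the fold change stayed between -0.94 and -0.75.

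The proximal promoters of Bmp3 and Pcsk6 are shown as those of a ligand gene and of a gene whose product cleaves ligand precursors; each runs from 250 bases before to 50 bases after the RefSeq start site, 5′ to 3′, on the rat assembly GRCr8. Capitals mark the BMP-Smad palindrome GGCGCC and the Smad-binding element CAGAC, searched on both strands (the palindrome is its own reverse complement, the other reads GTCTG). The Bmp3 promoter is chr14:11041233-11041532 on the minus strand, and the Pcsk6 promoter is chr1:128839492-128839791 on the plus strand.
Bmp3: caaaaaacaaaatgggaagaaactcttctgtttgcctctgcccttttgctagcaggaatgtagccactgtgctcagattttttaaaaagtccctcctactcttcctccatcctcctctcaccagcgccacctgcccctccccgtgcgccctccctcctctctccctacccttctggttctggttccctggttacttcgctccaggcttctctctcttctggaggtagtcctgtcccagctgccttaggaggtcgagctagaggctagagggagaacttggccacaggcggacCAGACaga
Pcsk6: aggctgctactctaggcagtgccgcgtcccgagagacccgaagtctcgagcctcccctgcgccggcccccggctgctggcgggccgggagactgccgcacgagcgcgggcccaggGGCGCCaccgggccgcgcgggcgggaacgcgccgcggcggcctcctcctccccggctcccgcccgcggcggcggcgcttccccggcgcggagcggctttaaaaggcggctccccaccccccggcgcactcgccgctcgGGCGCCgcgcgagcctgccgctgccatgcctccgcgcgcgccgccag
In the Pcsk6 window the palindrome occurred 2 times, with its first base at positions -135 and 3 relative to the start site, and no CAGAC was present. The Bmp3 window held 1 CAGAC at position 42 and no palindrome. Of 33469 rat promoter windows of the same length, 11.0% held the palindrome and 50.1% held CAGAC or its reverse complement. The Pcsk6 window was 81.0% G and C and the Bmp3 window 54.7%, against a median of 51.7% over all windows. A match is a stretch of letters and not a bound site.

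Among the receptors, the type I receptor gene Bmpr1a and the type II receptor gene Bmpr2 were lower in silica lungs, while Acvrl1 overlapped. Bmpr1a encodes ALK3, the type I receptor of most canonical BMPs. It had 379.5, 425 and 482 in silica lungs, against 602, 798 and 804 in control lungs, with control replicate 1 well below the other controls but still above every silica array. The log2 fold change was -0.75 ± 0.16, between those of Pcsk6 and Bmp3, and the gene was not among those called. Bmpr2 encodes the shared type II receptor kinase. Its leading probe set read 4092, 5998 and 4778 in silica lungs, against 6839, 7341 and 7191 in control lungs. Silica replicate 2 came closest to the controls and silica replicate 1 was the lowest, and the log2 fold change of -0.54 ± 0.16 moved to -0.69 without replicate 2 and to -0.41 without replicate 1 of the silica group. A much dimmer second Bmpr2 probe set had 14.3, 41.3 and 29.1 in silica lungs, against 52.1, 28.6 and 35.0 in control lungs, with overlap (-0.33 ± 0.27).

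Acvrl1 encodes ALK1, the type I receptor by which endothelial cells respond to BMP9 and BMP10. It had 5144, 4761 and 3814 in silica lungs, against 4267, 4247 and 4019.9 in control lungs. The silica arrays spanned a wider range than the controls, 2 above all of them and 1 below all of them, and the log2 fold change was 0.12 ± 0.14, with 0.03 without silica replicate 1 and 0.24 without silica replicate 3. Whether the receptor genes differed from each other in their response was not tested.

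The Id genes encode inhibitors of differentiation, helix-loop-helix proteins without a DNA-binding region, and are standard immediate targets of the BMP Smads. Id3 had 1985, 1977 and 2666 in silica lungs, against 3435, 3171 and 3759 in control lungs. Silica replicate 3 was the highest of its group and still lay below all controls. The means were 2209.5 ± 396 in silica lungs and 3455 ± 294 in control lungs (SD, n = 3 each), a log2 fold change of -0.65 ± 0.15. Id1 had 6061, 4126 and 4859 in silica lungs, against 5625, 5960.5 and 5532 in control lungs. Silica replicate 1 exceeded every control array while the other silica arrays lay below every control array, and the log2 fold change of -0.20 ± 0.16 became -0.35 without that replicate and -0.07 without silica replicate 2. Silica replicate 1 was thus the highest silica array for Id1, Acvrl1 and the leading Bmp6 probe set, and the lowest for Bmp3, Bmp4, Pcsk6, Bmpr1a and Bmpr2.

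The promoters of Id1 and Id3 are given for comparison of these paired targets, in the same window, build and notation. That of Id1 is chr3:161671314-161671613 on the plus strand, and that of Id3 is chr5:153656041-153656340 on the plus strand.
Id1: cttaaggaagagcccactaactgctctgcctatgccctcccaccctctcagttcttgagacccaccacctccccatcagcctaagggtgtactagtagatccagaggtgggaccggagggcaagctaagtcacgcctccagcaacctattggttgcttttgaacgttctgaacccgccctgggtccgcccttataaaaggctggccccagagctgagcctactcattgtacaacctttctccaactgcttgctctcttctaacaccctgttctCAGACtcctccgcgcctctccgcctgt
Id3: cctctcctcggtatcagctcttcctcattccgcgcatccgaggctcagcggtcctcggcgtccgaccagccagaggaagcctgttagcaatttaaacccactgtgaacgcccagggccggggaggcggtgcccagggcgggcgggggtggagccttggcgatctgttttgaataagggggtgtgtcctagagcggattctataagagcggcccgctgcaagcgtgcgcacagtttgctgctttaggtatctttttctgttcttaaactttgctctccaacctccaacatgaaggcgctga
The Id1 window held 1 CAGAC at position 23, and the Id3 window held neither motif. The BMP-responsive region described for mouse Id1 lies further upstream than this window reaches.

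**Figure D2:**
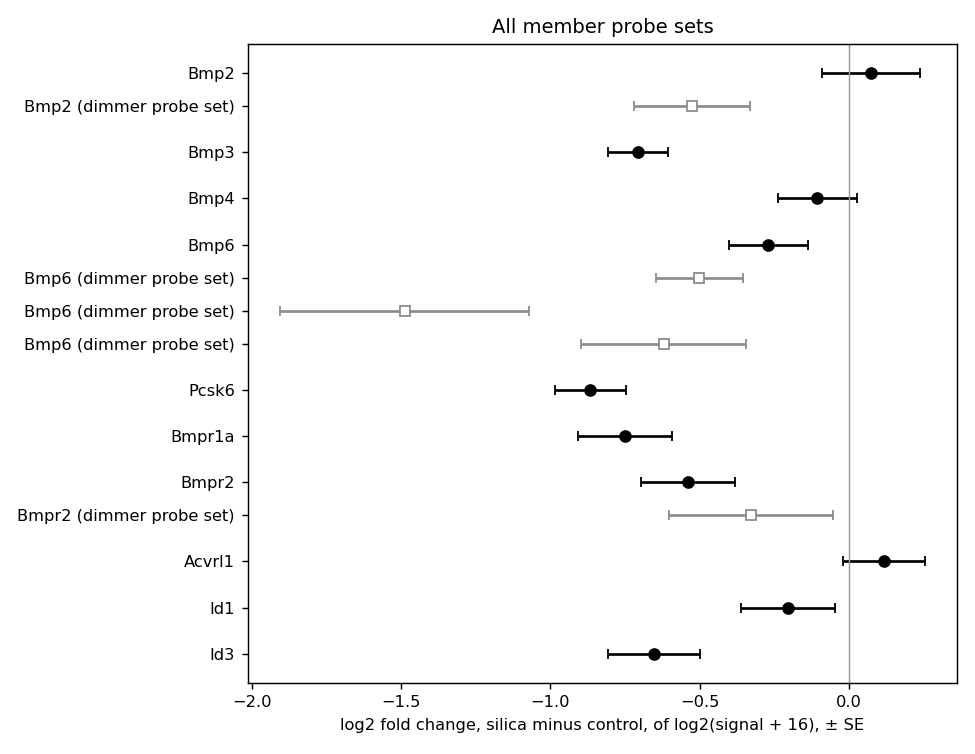
Log2 fold change (silica minus control, on log2(signal + 16)) ± SE for all 15 probe sets of the 10 genes, in order of role; filled circles are leading probe sets and open squares are dimmer ones. 13 of the 15 lie below 0, and the 2 above 0 are the leading probe sets of Bmp2 and Acvrl1. The 2 dimmest Bmp6 probe sets rest on silica signals under the dim limit of 32, so their places depend on the pseudocount.

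Counting every probe set, 13 of the 15 had a log2 fold change below 0, 8 had all silica arrays below all control arrays and 0 had them above. Over all probe sets these shares were 50.2%, 12.2% and 13.3%. Of the 10 genes, 7 had a single probe set, so a second reading was to hand only for Bmp2, Bmp6 and Bmpr2. In lung tissue, fewer cells of a type and less RNA per cell cannot be told apart.

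Several measures moved with the groups and so with these genes. Of 11 measured endothelial markers, 5 had all silica arrays below all control arrays and 0 the reverse, where 12.7% of all genes were apart in the lower direction and 18.7% in the higher. Their summed signal lay between 45429 and 51762 in silica lungs, and between 54784 and 56242 in control lungs. Among them Kdr, a receptor of vascular endothelial growth factor, had a log2 fold change of -0.33 ± 0.09 and Pecam1, an endothelial adhesion gene, 0.04 ± 0.13. Of 6 measured alveolar type 1 markers 5 were apart in the lower direction, with sums between 57599 and 62138 in silica lungs, and between 68618 and 72030.0 in control lungs. Leukocyte markers went the other way, with 10 of 12 apart in the higher direction and sums between 58945 and 72474 in silica lungs, and between 50657 and 51474 in control lungs. The median log2 fold change was -0.24 for the endothelial list, -0.21 for the alveolar type 1 list and 0.56 for the leukocyte list. That of the 10 BMP genes was -0.40, but they were chosen from this comparison, so these medians are not weighed against each other. No marker on these 3 lists had a signal of 1 or less on all arrays, and the part of cell makeup in the result was not tested.

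The mean log2 ratio of 3-prime to 5-prime signal of beta-actin and GAPDH, a measure of RNA integrity, was 1.67, 1.50 and 1.15 on silica arrays, against 1.23, 1.20 and 1.00 on control arrays. Silica replicate 3, whose ratio lay within the control range, had Bmp3, Pcsk6, Bmpr1a, Bmpr2 and Id3 signals below every control array, and was the highest silica array for Bmpr1a and Id3. The part of RNA quality in the result was not tested beyond the following fit. With this ratio as a covariate the log2 fold changes were -0.69 ± 0.14 for Bmp3, -0.77 ± 0.16 for Pcsk6, -0.54 ± 0.18 for Bmpr1a, -0.47 ± 0.22 for Bmpr2 and -0.40 ± 0.14 for Id3. No gene of the 10 was called in that fit, in which 0 of all probe sets were called.

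Over the 17 alternative settings, 7 of the 10 genes kept a log2 fold change below 0 in each (Bmp3, Bmp6, Bmpr1a, Bmpr2, Id1, Id3 and Pcsk6). Of these settings, the replicate block, the intensity trend and the omission of dimmer probe sets cannot alter a fold change. Except for Id1, these genes had all silica arrays below all control arrays, so leaving out arrays cannot change their sign. The genes were also chosen from this comparison, so nothing is read from the constant sign. Bmp2, Bmp4 and Acvrl1, whose groups overlapped, took both signs, and Acvrl1 had -0.10 ± 0.12 with the ratio as a covariate.

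**Figure D3:**
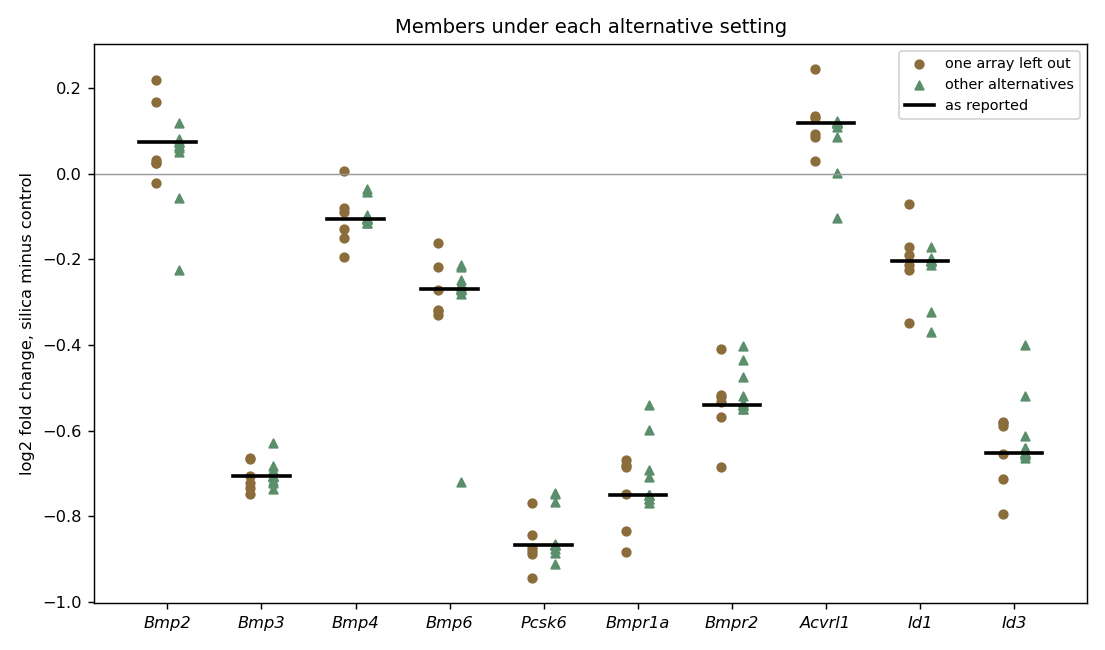
Log2 fold change of the 10 genes as reported (bars), with 1 array left out (circles) and under the other alternative settings (triangles). Bmp3, Bmp6, Bmpr1a, Bmpr2, Id1, Id3 and Pcsk6 stay below 0 throughout, while Bmp2, Bmp4 and Acvrl1 cross it. Many of these settings cannot change the sign of a gene whose groups stand apart, so nothing is read from a constant sign.

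**Figure D4:**
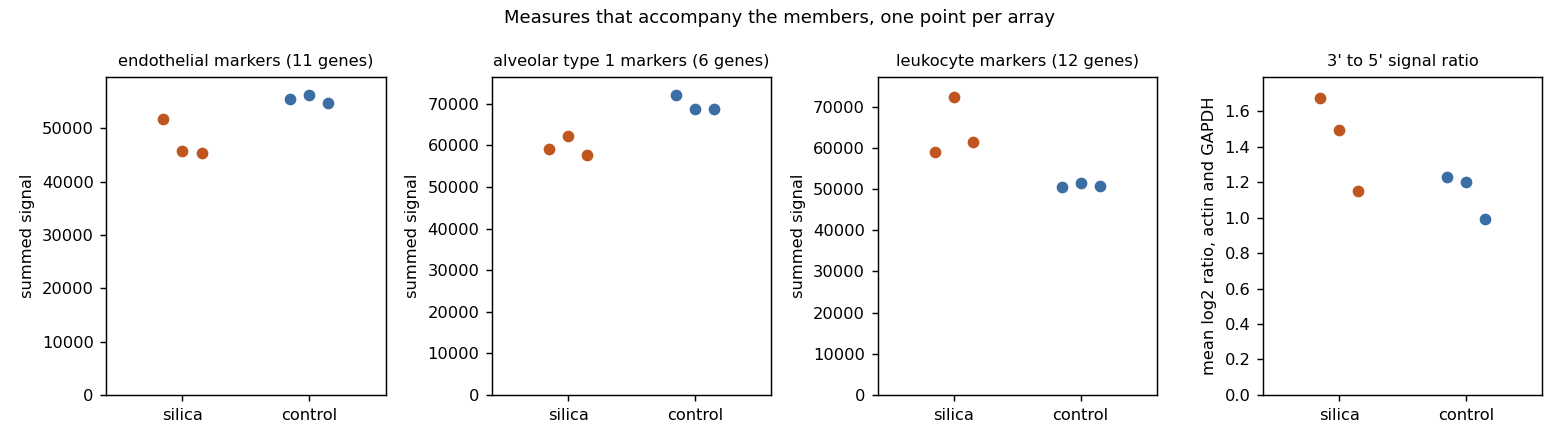
Summed linear signal of the endothelial, alveolar type 1 and leukocyte marker lists, and the mean log2 ratio of 3-prime to 5-prime signal, with 1 point per array and silica left of control; all axes start at 0. Endothelial and alveolar type 1 sums are lower on all 3 silica arrays, leukocyte sums are higher, and the ratios of the groups overlap.

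The rest of the pathway was followed in a list of 64 further genes, of which 50 had a probe set. At a limma adjusted p under 0.05, 1 of the 50 passed, in the higher direction (Msx2), and 0 in the lower, against 0.12% of all genes lower and 1.55% higher. At an unadjusted p under 0.05, 11 were lower and 5 higher, where over all genes 7.24% were lower and 12.6% higher. All silica arrays lay below all controls for 16 of the 50 and above them for 6, against 12.7% and 18.7% of all genes. The median log2 fold change of the 50 was -0.06.

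Of 5 further ligand genes measured, 0 passed by limma and 1 was lower at an unadjusted p under 0.05, against 7.24% of all genes. That was Bmp15, a ligand of the ovary, with 70.2 ± 15.4 in silica lungs and 117 ± 16.5 in control lungs (-0.63 ± 0.17, limma adjusted p = 0.148). Bmp5, a ligand of skeletal and lung development, had 334 ± 14.2 in silica lungs and 295 ± 20.2 in control lungs (0.17 ± 0.10, limma adjusted p = 0.430). Of 8 further receptor and coreceptor genes 0 passed by limma and 1 was lower at an unadjusted p under 0.05, against the same 7.24%. Endoglin (Eng), the endothelial coreceptor that works with Acvrl1, had 2497, 2842 and 2350.5 in silica lungs, against 3074, 3329.9 and 3639 in control lungs. Its groups did not overlap, unlike those of Acvrl1, and its log2 fold change was -0.38 ± 0.12 (limma adjusted p = 0.197). Tgfbr3, the coreceptor betaglycan, had -0.50 ± 0.22 (limma adjusted p = 0.310).

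Of 8 Smad and Smurf genes 0 passed by limma and 2 were lower at an unadjusted p under 0.05, against 7.24% of all genes. Smad9, which encodes one of the receptor-activated BMP Smads, came nearest, with 867, 838 and 811 in silica lungs, against 1459.5, 1240.2 and 1253 in control lungs. The silica arrays lay close together and below all controls, and the log2 fold change was -0.64 ± 0.11 (limma adjusted p = 0.0634). Smad6, an inhibitory Smad that BMP itself induces, had 801, 1105 and 967 in silica lungs, against 1200.5, 1221 and 1458 in control lungs (-0.43 ± 0.16, limma adjusted p = 0.234). All 4 Smad6 probe sets had log2 fold changes below 0, of -0.55, -0.43, -0.32 and -0.21. Those at -0.32 and -0.21 had overlapping groups, and that at -0.21 was dim in both groups. Smad1 and Smad5, the other BMP Smads, had 0.05 and -0.20 by leading probe set, and Smad4, the shared partner, -0.06. A dimmer Smad4 probe set had -0.53 ± 0.20, with all silica arrays below all control arrays (limma adjusted p = 0.260). The dimmer probe sets of Smad1 and Smad5 had overlapping groups.

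Extracellular antagonists and the pseudoreceptor Bambi lay on both sides of 0. Of 14 measured, 0 passed by limma, and 4 were lower and 1 higher at an unadjusted p under 0.05. Over all genes 7.24% were lower and 12.6% higher at that threshold. Sostdc1, a secreted antagonist, had 51.3 ± 6.90 in silica lungs and 85.1 ± 8.30 in control lungs (-0.59 ± 0.12, limma adjusted p = 0.0992). Twsg1, twisted gastrulation, which binds BMPs together with chordin, had 4144, 5485 and 4419 in silica lungs, against 7201, 6620.3 and 6747 in control lungs (-0.56 ± 0.13, limma adjusted p = 0.128). Like Bmpr2 it was lowest on silica replicate 1 and highest of the silica arrays on replicate 2, and its second probe set had -0.59. Named after their values were seen, Bambi had -0.62 ± 0.18 and Nog, which encodes the antagonist noggin, 0.98 ± 0.25. Nog signals were 263, 216 and 184 in silica lungs, against 121, 131 and 66.9 in control lungs, so the groups were apart in the higher direction (limma adjusted p = 0.146).

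Of 10 further BMP-responsive genes, Msx2 rose and 3 were lower at an unadjusted p under 0.05, where 7.24% of all genes were lower. Msx2, a homeobox gene, had 51.2, 56.6 and 30.6 in silica lungs, against 11.3, 9.0 and 7.40 in control lungs (limma adjusted p = 0.0467). All control signals lay under 32, the limit below which a signal is called dim, and the gene passed that limit only through the silica arrays, so the size of its change depends on the pseudocount and is not given. The other 2 Msx2 probe sets had overlapping groups, so the call rests on 1 probe set. Of the 17 alternatives, it held with quantile normalization, pseudocount 64, the intensity trend with robust spread and array weights. Named after their values were seen, Id4, the fourth Id gene, had -0.52 ± 0.11 (limma adjusted p = 0.106), and Tmem100, an endothelial gene downstream of Acvrl1, had -0.71 ± 0.25 (limma adjusted p = 0.224). Tmem100 had 3731, 2171 and 4079.6 in silica lungs, against 5110.0, 5066 and 5661 in control lungs, with silica replicate 2 far below the rest. All 4 Id4 probe sets were below 0, with overlapping groups in those at -0.40 and -1.03. The leading Id2 probe set had 0.00 and its second 0.44.

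By leading probe set, most of the other proteases had log2 fold changes above 0, unlike Pcsk6, where 46.3% of all genes were below 0. Of 5 measured convertase and tolloid genes 0 passed by limma, and 3 were higher at an unadjusted p under 0.05, against 12.6% of all genes. Pcsk2 was dim in both groups. Pcsk5, named after its values were seen, had 0.26 ± 0.12 by leading probe set. A dimmer Pcsk5 probe set had -0.49 ± 0.20, with all silica arrays below all control arrays. Bmp1, which despite its name encodes a tolloid metalloprotease that trims procollagen and chordin, had 1952, 1348 and 1671 in silica lungs, against 1181, 1089 and 1162 in control lungs (0.51 ± 0.15, limma adjusted p = 0.182), and a dimmer probe set of it had -0.12. Pcsk7 had 599 ± 28.4 in silica lungs and 491 ± 17.9 in control lungs (0.28 ± 0.09, limma adjusted p = 0.221). Furin, the widely expressed convertase of BMP precursors, named after its values were seen, had 609, 527 and 492 in silica lungs, against 428, 458 and 408 in control lungs (0.32 ± 0.12, limma adjusted p = 0.250). The difference between Pcsk6 and these convertases was not tested.

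**Figure D5:**
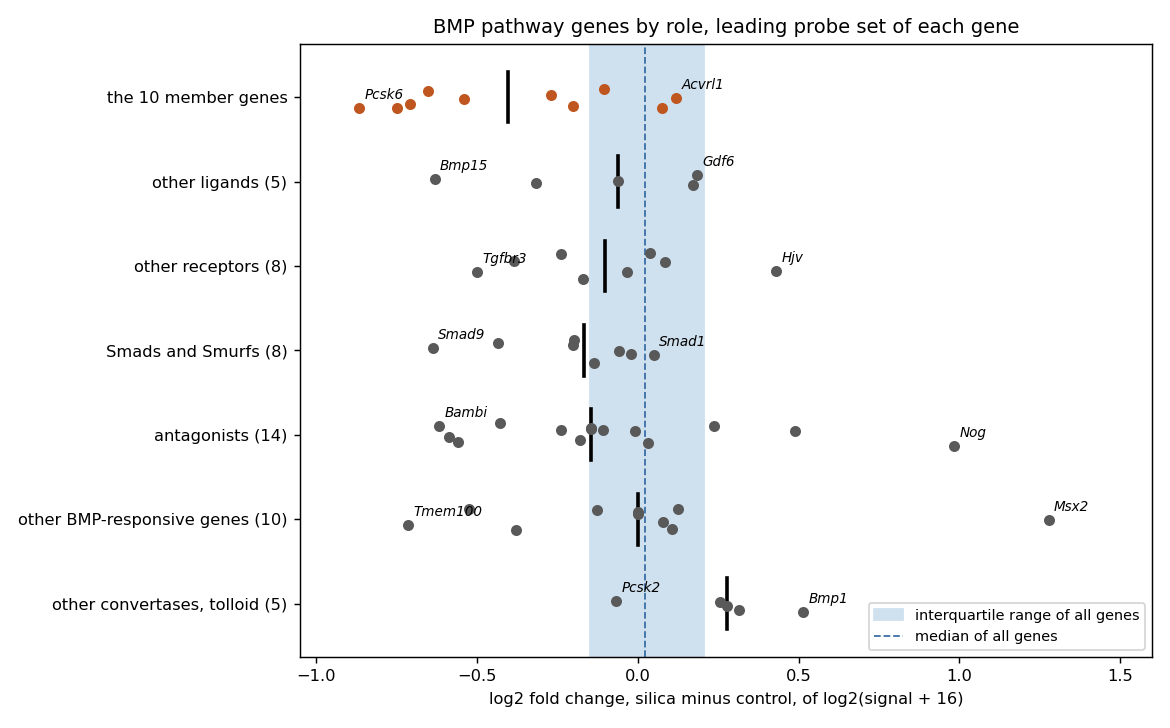
Log2 fold change (silica minus control, on log2(signal + 16)) of the leading probe set of each BMP pathway gene, by role, with the number of genes measured in brackets; black bars are medians, and the lowest and highest gene of each row are named. The band spans the interquartile range of all genes (-0.15 to 0.21) and the dashed line is their median (0.02). The point of Msx2 rests on control signals under the dim limit, so its place depends on the pseudocount.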

How the data were processed

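The deposited values are linear signal intensities from 1-colour arrays, 1 per probe set and array; the sources used here do not name the software that made them. Per the labels' protocols, the target was cRNA carrying biotin, transcribed in vitro. Means after trimming 2% at each end were 500.14 to 500.15 on every array, so the authors' values had been scaled per array. Of 31099 probe sets, 57 array controls were left out. Genes came from the platform annotation, with symbols updated by identifier through RefSeq (GRCr8): 20826 probe sets had 1 gene, 436 several and 9780 none here. Values were taken as log2(signal + 16) and the groups were compared in R 4.3.3 with limma 3.58.1 (lmFit, eBayes; no covariate; 4 residual degrees of freedom and a prior of 2.18), with Benjamini-Hochberg adjustment over 31042 probe sets at 0.05. The fit was run on simulated data to check the code. That check required recovery only of changes larger than any given here. The 10 genes and all lists were chosen with earlier results of these data known. Named pathway genes are those that passed, or otherwise the 2 with the smallest p in a list, leaving out genes with a signal under about 32 in both groups. Outside this rule are Smad1, Smad4, Smad5, Id2, Pcsk2 and the genes marked as named after their values were seen. Alternatives were quantile normalization, median centring, pseudocounts of 1 and 64, the dimmer 50% left out, a replicate block, an intensity trend with robust spread, array weights, the mean of a gene's probe sets, an RNA quality covariate, each array left out, and control replicate 3 with silica replicate 1 left out. The number of arrays limits precision, and 3 against 3 cannot give an exact permutation p under 0.10. Promoter sequences are from RefSeq (GRCr8), which held 8 of the 10 genes. The marker lists of alveolar type 2, fibroblast, smooth muscle, airway, cardiac and mesothelial genes had median log2 fold changes of -0.04, -0.13, 0.01, -0.14, 0.00 and -0.14, none with a called gene.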

Additional observations from a re-analysis of the deposited data

How the results depend on the processing

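The count of the 10 genes called lower was 2 as reported, and 0 with pseudocount 1, the replicate block, the RNA quality covariate, or control replicate 3 and silica replicate 1 left out together. It was 5 with the dimmer 50% of probe sets left out or with an intensity trend and robust spread, where Bmpr1a, Bmpr2 and Id3 joined Bmp3 and Pcsk6, and 3 with pseudocount 64 (Bmpr1a joined). It was 0 in each of the 6 fits with 1 array left out. The count called higher was 0 under all 17 alternatives. The number of all probe sets called shifted as well. It was 335 as reported, 290 with median centring, 43 with pseudocount 1 and 919 with pseudocount 64. With the dimmer 50% left out it was 1675, and with the intensity trend 1862. With 1 array left out it was between 0 and 12, and with those 2 arrays left out it was 0. Of the other pathway genes, 1 passed as reported, 0 with median centring, pseudocount 1, the replicate block, the covariate or those 2 arrays left out, 3 with pseudocount 64, 5 with the dimmer 50% left out and 8 with the intensity trend, and 0 in each fit with 1 array left out. With the mean of a gene's probe sets 1 passed as well, but it was Sostdc1 and not Msx2. Some of these fits hold fewer arrays or fewer probe sets; the cause of the other shifts was not tested. Of 170 fold changes of single genes under the alternatives, 165 moved by less than the spread between replicates. The replicate block, the intensity trend and the dimmer 50% left out cannot alter a fold change. Leaving out 1 array of a group of 3 always shifts it by less than this spread. Much of that count was thus fixed in advance, and nothing is read from it. The other 5 were Bmp2 (-0.23) and Bmp6 (-0.72) as the mean of all probe sets, and Bmpr1a (-0.54), Id3 (-0.40) and Acvrl1 (-0.10) with the covariate. Replicate numbers were not taken as pairs: deviations of same-numbered arrays from their group means correlated at 0.09, 0.04 and 0.09, although each array correlated best with its own number. With the replicate block 1 of all probe sets was called, against 335 as reported.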
